A study of Mus musculus with 48 samples.

Results

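In the cortex of water-drinking APP/PS1 mice, 69 probes of the array read lower than in wild-type (WT) littermates by a rule that used the measured values themselves. A probe is a short oligonucleotide that reads the RNA of 1 gene or transcript. Levels are given as log2 of the scanner's processed signal minus the 75th percentile of the same array, so a difference between groups is a log2 fold change. A probe was a member where it was well above background on 4 or more arrays of either water group, where each APP/PS1 array lay below every WT array, and where the mean of the WT arrays was at least 1.5-fold higher. The members were thus selected on the 11 water arrays of the cortex. Of the 56605 probes on the array, 37458 passed the background filter, 281 of those were fully separated in this direction, 561 had a mean difference that large, and 69 met both conditions (0.184% of the probes that passed). These 69 probes stood for 42 genes with a name, out of 22931 named genes on the array, read by 46 probes, and for 23 probes with no gene name: 7 for Ensembl transcripts, 7 for cDNA clones, 5 for genome regions, 3 for RefSeq models and 1 for a transcript cluster. Since the water arrays of the cortex chose the members, their values there are a description and carry no test.

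The study asked how long-term blockade of the adenosine A2A receptor with MSX-3 bears on a mouse model of amyloid pathology. Male mice heterozygous for APPswe/PS1dE9, on a C57BL/6J background, were set beside WT littermates, and each genotype drank plain water or a solution of MSX-3, which is the soluble prodrug form of an A2A antagonist, at 0.3 g/L from 3 months of age until they were killed at 9 to 10 months. Cortex and hippocampus of 24 mice were each hybridised to a single-colour array, which gave 8 groups of 6 arrays (48 in all), from single mice. The water groups are thus the untreated controls of the MSX-3 groups, and the WT groups carry neither transgene, while both transgenes of the APP/PS1 mice are driven by the mouse prion protein promoter. The scanner software found no spot grid on 2 of the arrays, both of WT cortex (1 water, 1 MSX-3), so these groups held 5 arrays in every result here. The remaining 46 arrays came from 7 slides and 2 scan days.

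APPswe/PS1dE9 mice make a mutant amyloid precursor protein together with a presenilin that favours longer amyloid-β peptides, and they form plaques in cortex and hippocampus that are surrounded by reactive microglia and astrocytes. The transgenes of this line have been mapped to a single site on chromosome 9. Adenosine A2A receptors sit on neurons, astrocytes and microglia and signal through cyclic AMP. In a homogenised piece of tissue, fewer cells of a type cannot be told apart from less RNA per cell.

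Between 55.8% and 75.5% of probes were well above background on a single array, with group medians from 61.9% in APP/PS1 MSX-3 cortex to 70.6% in WT water cortex. As a check of the genotype labels, a probe for Prnp, the gene from which the transgene vector derives, ranged from 7.0 to 7.56 on the APP/PS1 arrays and from 5.12 to 5.60 on the WT arrays. Another Prnp probe did not split the genotypes (1.14 to 2.03 in APP/PS1 and 1.28 to 2.08 in WT). The App probes did not either, with 5.54 to 6.17 and 5.36 to 6.24 on the brighter of them. The tissue labels were checked with summed linear levels of marker genes. Cortical-layer markers summed to between 57.8 and 78.6 on cortex arrays and between 34.3 and 47.7 on hippocampus arrays, and markers of hippocampal fields to between 12.3 and 18.2 and between 33.4 and 54.8.

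Members of the water cortex spanned dim and bright probes. On all 5 WT water arrays 61 of the 69 were well above background, 31 were so on all 11 water arrays, and 12 on none of the 6 APP/PS1 arrays. For the dim ones a difference of means has no true size, only a lower bound. Gsta2, a glutathione S-transferase, had the widest gap of means at -2.01, with -5.75, -5.56, -4.87, -4.72 and -4.65 on the WT arrays and -7.62, -7.02 and -6.66 as lowest, median and highest on the APP/PS1 arrays. With no APP/PS1 array above background, WT was at least 1.20-fold higher. The same held for Mamld1, a mastermind-like transcriptional coactivator (-1.76, at least 1.38-fold), and for Adgrg2, an adhesion G protein-coupled receptor (-1.30, at least 1.29-fold, measured on 4 of 5 WT arrays). Gm5148 differed by -1.26 (at least 1.62-fold). Nphs1, which encodes the slit-diaphragm protein nephrin, differed by -1.19 (at least 1.09-fold), and 6330549D23Rik by -1.01 (at least 1.08-fold, 4 of 5 WT arrays measured). The widest gaps were therefore not the best measured ones.

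Among genes for surface and matrix proteins, Cd6, a scavenger-receptor-type glycoprotein known from T cells, read 0.55, 0.59, 1.05, 1.18 and 1.39 on the WT water arrays. On the APP/PS1 water arrays it ran from -0.50 over a median of -0.32 to 0.02, a difference of -1.24. It was well above background on all 46 arrays. Col6a4, a type VI collagen chain, differed by -1.13, Ntn5, a netrin, by -0.81, Cntn5, a neural cell adhesion molecule of the contactin family, by -0.72, and Jaml, a junctional adhesion molecule of leukocytes, by -0.65. Mslnl, a mesothelin-like gene, differed by -0.94.

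Enzymes made up a further group. Mmel1 encodes a membrane metalloendopeptidase of the neprilysin family, whose members can cleave amyloid-β, and both of its probes were members. The probe A_55_P2001078 read from -1.20 to -0.51 on the WT water arrays (median -0.98) and from -2.51 to -1.51 on the APP/PS1 arrays (median -1.83), a difference of -1.02, and the probe A_51_P217517 differed by -0.96. Dmgdh, mitochondrial dimethylglycine dehydrogenase, differed by -0.88, Rpe65, the retinoid isomerase of the visual cycle, by -0.81, and Ido1, which opens tryptophan breakdown, by -0.80. Etnppl, which breaks down phosphoethanolamine, differed by -0.75 and the putative glycerol kinase gene Gk5 by -0.83.

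Signalling, contractile and channel genes followed. Arpp21, a neuronal phosphoprotein regulated by cyclic AMP, had 3 member probes, which differed by -0.81, -0.73 and -0.66. On the brightest of them, A_52_P38208, WT water arrays read 2.56, 2.71, 2.72, 2.79 and 2.80, and APP/PS1 water arrays 1.80, 1.98 and 2.12 (lowest, median and highest). Mylk3, the cardiac myosin light chain kinase, had 2 member probes (-0.78 and -0.69), and Myh2, a fast muscle myosin heavy chain, differed by -0.81. Tmc1, a part of the mechanotransduction channel of hair cells, differed by -0.84, Ocm, a calcium buffer of the parvalbumin family, by -0.94, and the NIMA-related kinase Nek11 by -0.84. Gm765 and 1700047F07Rik, whose products are little described, differed by -1.11 and -1.0.

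Region probes without a gene name were among the widest gaps. These were chosen for mention after their values were seen. A region probe of chr4:56480568-56658018 (mm9, R strand of the array's own name) differed by -1.46 and was well above background on 5 of 6 APP/PS1 arrays. Another, of chr4:129532314-129533954 (mm9, F strand), differed by -1.16 and was above background on none of them. It was well above background on 4 of 5 WT arrays, but too dim there for any lower bound on the fold, so its gap has no supported size.

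Close to the threshold, the members Trhde, which encodes the ectoenzyme that degrades thyrotropin-releasing hormone (-0.59), Dcdc2a, a doublecortin-domain gene (-0.60), and Gm32949 (-0.60) lay just inside. A region probe of chromosome 9 (-0.58), Fibcd1, a fibrinogen-domain receptor (-0.58), and F2rl2, a protease-activated receptor (-0.58), were fully separated too but lay just outside. The number of members changed when single mice were left out. Full separation is easier to meet with fewer arrays, so a higher count is partly built into the rule. Leaving out 1 mouse at a time gave between 77 and 173 probes, with 173 without APP/PS1 mouse 255, 168 without WT mouse 258, 144 without WT mouse 308 and 109 without APP/PS1 mouse 323.

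Where a member gene had further probes that passed the filter, these were compared by the same arrays. There were 16 such probes for 14 genes, and on all 16 the mean difference was below 0, with a median of -0.34. They read genes that were chosen on these same arrays, so their shared direction is no separate support. For several the second probe hardly differed, with -0.02 for Mamld1, -0.0026 for Hspb11, an intraflagellar transport gene, and -0.0030 for Prdm9, the histone methyltransferase of meiotic recombination. It differed by -0.19 for Nphs1, -0.14 for Gk5 and -0.40 for Ntn5, and further Cntn5 probes by -0.11 and -0.61. In MSX-3 cortex these probes of Nphs1 and Gk5 lay above 0 (0.45 and 0.35, neither called). The remaining Arpp21 probe that passed differed by -0.46 without overlap of the groups.

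**Figure D1:**
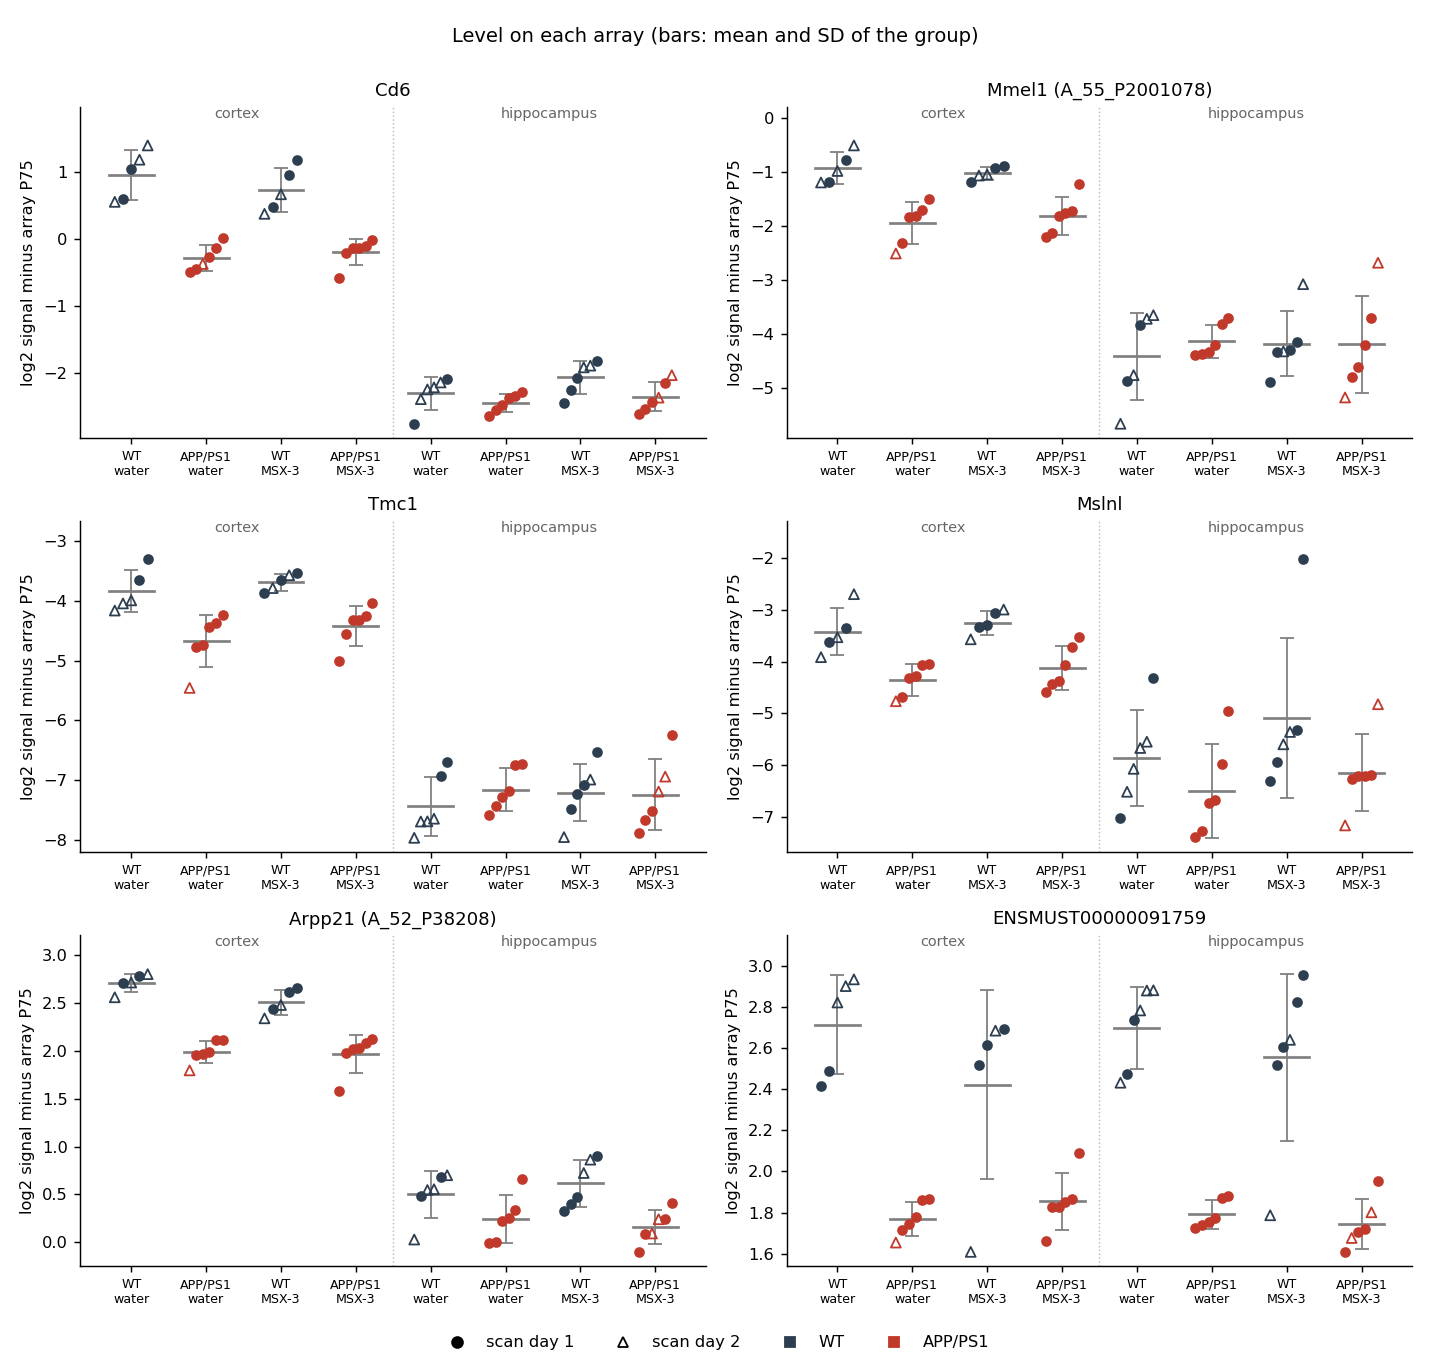
Level of 6 members on each array, as log2 processed signal minus the array's 75th percentile, for the 8 groups on the horizontal axis (filled circles, scan day 1; open triangles, scan day 2; grey bars, mean and SD). On average, Cd6, Mmel1, Tmc1 and Mslnl are lower in APP/PS1 than in WT cortex on water and on MSX-3 and lower still in the hippocampus of all 4 groups, while ENSMUST00000091759 is split by genotype in both tissues except on the 2 arrays of WT mouse 304.

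MSX-3-treated mice offered a cortex comparison of genotype that shared no mouse and no array with the rule. No slide held both genotypes in this comparison, so an effect of the slide cannot be told apart from genotype in it. Of the 69 members, 48 passed the filter there (4 or more arrays of a group well above background) and 21 did not. Below 0 lay 40 of the 48 (83.3%, against 55.2% of the 35847 probes tested), with a median log2 difference of -0.38 (all probes -0.03). Of the 48, 39 passed in both groups, 8 through the WT group alone and 1 through the APP/PS1 group alone. Over the 39 that passed in both, 33 lay below 0, the median was -0.40 and 6 were called lower. Called lower (Benjamini-Hochberg adjusted p under 0.05 in limma over all probes and a fold change of at least 1.5) were 7 members, against 0.145% of all probes tested (52 of 35847), and 488 probes were called higher, none of them a member. On 9 of the 48 each APP/PS1 array lay below every WT array, which was so for 0.671% of all probes. Genes called included Cd6, Mmel1, Tmc1 and Mslnl.

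Cd6 (A_51_P313320) read 0.38, 0.48, 0.67, 0.96 and 1.17 on the WT MSX-3 arrays and between -0.57 and -0.01 on the APP/PS1 MSX-3 arrays (median -0.13). The groups did not overlap, and the difference was -0.92 (SE 0.15, limma adjusted p = 0.00645). On water, where the values chose the members, it had been -1.24.

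Mmel1 was lower on both of its probes. The probe A_55_P2001078 read -1.20, -1.07, -1.05, -0.92 and -0.90 in WT and between -2.21 and -1.23 in APP/PS1 (median -1.79), a difference of -0.78 (SE 0.16, limma adjusted p = 0.0253). On the probe A_51_P217517 the WT values were -1.30, -1.16, -1.12, -0.97 and -0.94 and those of APP/PS1 ran from -2.12 to -1.30 (median -1.84), a difference of -0.68 (SE 0.15, limma adjusted p = 0.0422). The groups met closely but did not overlap on either probe. Tmc1 (A_55_P2147026), dim in all cortex groups, read -3.87, -3.79, -3.65, -3.57 and -3.54 in WT and from -5.01 over -4.32 to -4.03 in APP/PS1, where 4 of 6 arrays were well above background (difference -0.73, SE 0.16, limma adjusted p = 0.0345). Mslnl (A_51_P520639) read -3.57, -3.33, -3.29, -3.05 and -2.99 in WT and from -4.59 over -4.21 to -3.53 in APP/PS1, and here 1 APP/PS1 array overlapped the WT range (difference -0.87, SE 0.20, limma adjusted p = 0.0479). The cDNA clone AK045605 (A_66_P125876), which has no gene name and was singled out after its values were seen, read between -3.66 and -3.40 in WT and between -5.55 and -4.39 in APP/PS1 (difference -1.17, SE 0.19, limma adjusted p = 0.00469). It was well above background on 5 of 5 WT but 3 of 6 APP/PS1 arrays, so it passed the filter through the WT group alone, and the size of its difference is uncertain.

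For these genes called in MSX-3 cortex, the RefSeq sequence before the start site is shown, so that the members that were lower in both sets of cortex arrays can be compared. Of the 4 genes, 3 were listed in the RefSeq promoter table: Mmel1 (chr4:154869335-154869584, + strand), Mslnl (chr17:25735790-25736039, + strand) and Tmc1 (chr19:20954203-20954452, - strand), all in GRCm38.p6, 250 bases up to the start, 5′ to 3′. Capitals mark a match, on either strand, to the motif TATAAA, the motif CCAAT or the motif GGGCGG.
Mmel1: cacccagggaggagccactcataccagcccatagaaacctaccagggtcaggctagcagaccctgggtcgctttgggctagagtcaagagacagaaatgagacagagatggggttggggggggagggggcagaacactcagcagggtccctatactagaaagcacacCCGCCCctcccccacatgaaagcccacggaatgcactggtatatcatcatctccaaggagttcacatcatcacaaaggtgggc
Mslnl: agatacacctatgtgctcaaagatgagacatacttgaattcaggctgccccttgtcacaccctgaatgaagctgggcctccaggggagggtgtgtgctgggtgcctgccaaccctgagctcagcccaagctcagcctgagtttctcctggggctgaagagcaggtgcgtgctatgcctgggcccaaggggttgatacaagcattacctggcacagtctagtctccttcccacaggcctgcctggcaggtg
Tmc1: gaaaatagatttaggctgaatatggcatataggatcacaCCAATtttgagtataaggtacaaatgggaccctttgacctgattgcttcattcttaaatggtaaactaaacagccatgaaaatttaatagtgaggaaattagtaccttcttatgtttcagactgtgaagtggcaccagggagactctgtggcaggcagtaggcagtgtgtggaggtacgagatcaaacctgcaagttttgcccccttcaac
Mmel1 held GGGCGG on the strand opposite to the printed one, 83 bases upstream of the start, Tmc1 held CCAAT on the printed strand, 211 bases upstream, and Mslnl held none of these motifs. Among 32851 windows of the same length, TATAAA was found in 12.4%, CCAAT in 33.8% and GGGCGG in 32.7%. The 3 windows thus shared no motif of those searched.

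A further 3 members had an adjusted p under 0.05 but a fold change under 1.5. Sytl1, a synaptotagmin-like Rab effector, differed by -0.52 (limma adjusted p = 0.0173), Gm765 by -0.56 (limma adjusted p = 0.0288) and the brightest Arpp21 probe by -0.54 (limma adjusted p = 0.0292). That Arpp21 probe read 2.34, 2.44, 2.48, 2.61 and 2.66 on the WT MSX-3 arrays and from 1.58 over 2.03 to 2.13 on the APP/PS1 arrays, without overlap. Its other member probes differed by -0.49 and -0.40 (limma adjusted p = 0.224 and 0.206). Dmgdh had the widest difference of the members, -1.40 (SE 0.32), at an adjusted p of 0.0502 in limma. It was above background on no APP/PS1 array there and on 4 of 5 WT arrays, so WT was at least 1.29-fold higher.

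Not every member was below 0. Perm1, a regulator of muscle metabolism, differed by 1.18 (SE 0.65, limma adjusted p = 0.493), with 1 APP/PS1 array at -1.83 against a group median of -4.74. Pim1, a serine/threonine kinase, differed by 0.25 and 1700047F07Rik by 0.24, and none of these passed the test. Gsta2 was not tested, since it was well above background on only 2 WT and no APP/PS1 arrays. Its WT values spread from -6.45 to -2.66.

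Leaving out APP/PS1 mouse 266, APP/PS1 mouse 319 or WT mouse 303 cut the 7 called members to 3 each, and leaving out WT mouse 77 cut them to 4. Cd6 and AK045605, the latter with the limit just given, were called in each of the 11 fits without 1 mouse. Microglial markers moved with the genotype in the same arrays: 8 of 12 microglia genes and 12 of 15 genes of plaque-associated microglia were called higher (medians 0.98 and 1.51), and the summed linear level of the latter was 161 to 191 on the WT and 272 to 360 on the APP/PS1 arrays. Astrocyte markers summed to 238 to 266 on the WT and 272 to 342 on the APP/PS1 arrays, without overlap, and 1 of 10, Gfap, the intermediate filament of reactive astrocytes, was called higher (2.80). Of 7 measured blood markers 6 lay below 0 (median -0.54), none of these called, and Ptprc, the leukocyte antigen CD45, was called higher (1.85). Their summed level overlapped, at 12.4 to 58.4 in WT and 9.07 to 100 in APP/PS1. None of the neuronal, inhibitory-neuron, cortical-layer or oligodendrocyte markers was called in either direction. The part of the change in cell makeup in the members' differences was not tested.

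**Figure D2:**
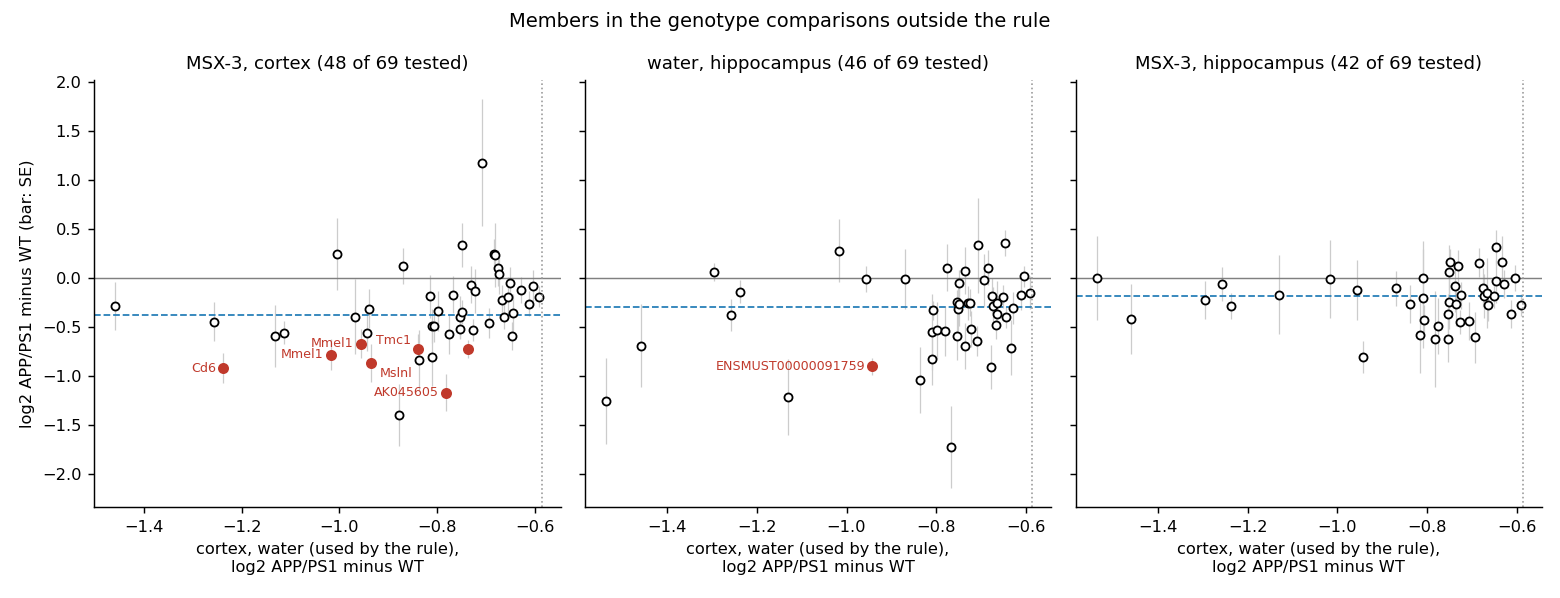
Log2 difference APP/PS1 minus WT (bars, SE) of the tested members in MSX-3 cortex, water hippocampus and MSX-3 hippocampus, against the cortex difference on water that chose them (dotted line, the 1.5-fold threshold; dashed line, members' median; red, called). Most points lie below 0 in each panel, with 7 members called in MSX-3 cortex, 1 in water hippocampus and 0 in MSX-3 hippocampus.

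The gene families of the members were described through lists of related genes in the MSX-3 cortex. Of 14 genes for neprilysin-family and other amyloid-degrading peptidases, 11 were measured. Mmel1 was called lower there, while Klk6, a kallikrein, and Plau, the urokinase plasminogen activator, were called higher (1.52 and 1.04). Of 8 genes of the villin and gelsolin family, 7 were measured. Vill, a villin-like gene that is no member, was called lower (-1.04) and Capg, an actin-capping protein, higher (0.96), with a median of 0.04. No gene was called among 30 measured contractile proteins (median -0.07), 19 genes of cyclic AMP and calmodulin signalling (median -0.03), 13 NIMA-related and Unc-51-like kinases (median 0.07), 13 Kruppel-like factors (median -0.02) and 12 copines and synaptotagmin-like genes (median 0.01). In the hippocampus no gene of these lists was called lower on water or on MSX-3.

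In the hippocampus of water-drinking mice, which were the same animals as in the rule, 46 members were tested and 23 were too dim. Below 0 lay 38 of the 46 (82.6%, against 56.4% of 37430 probes), with a median of -0.30 (all probes -0.03). Of the 46, 34 passed the filter in both groups, with a median of -0.25 and 27 below 0, and 12 passed through the WT arrays alone. Only the probe for ENSMUST00000091759 was called lower, where 0.0401% of all probes were (15 of 37430). With the slide as a block that call was lost (-0.87, limma adjusted p = 0.232). The probe was also the 1 tested member whose groups did not overlap, which held for 0.457% of all probes. Cd6 and Mmel1, called in MSX-3 cortex, did not pass here: Cd6 differed by -0.14 (SE 0.11) and the Mmel1 probes by 0.28 (SE 0.32) and -0.01 (SE 0.13). Col6a4 differed by -1.22 (limma adjusted p = 0.278) and was well above background on all 12 arrays. The non-coding RNA gene AU023762 (-1.73, SE 0.42, limma adjusted p = 0.125) and Nek11 (-1.04, limma adjusted p = 0.296) were so on 6 of 6 WT arrays but on 1 and 2 of 6 APP/PS1 arrays, and so passed the filter through WT alone.
Markers of the choroid plexus moved the same way in these hippocampus arrays, with 8 of 8 genes below 0 (median -0.91, none called). The summed linear level of 6 of them ran from 1.32 to 210 with a median of 73.1 on the WT arrays and from 1.47 to 208 with a median of 3.19 on the APP/PS1 arrays, and its part in the members' differences was not tested. Of the plaque-microglia genes 8 of 15 were called higher there, with a summed level of 175 to 218 on the WT and 199 to 280 on the APP/PS1 arrays.

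On MSX-3, 42 members were tested in the hippocampus, of which 35 lay below 0 (83.3%, against 48.6% of 37471 probes), with a median of -0.18 (all probes 0.01). The filter was passed in both groups by 35 of the 42, of which 29 lay below 0, with a median of -0.18. Through the WT group alone passed 6, and through the APP/PS1 group alone 1. None of the 42 was called in limma, where 0.00267% of all probes were called lower (1 of 37471), though 9 had an unadjusted p under 0.05. No member was free of overlap, against 0.107% of all probes. ENSMUST00000091759 had the smallest adjusted p (-0.81, SE 0.16, limma adjusted p = 0.0748). Mylk3 differed by -0.61 and -0.49, Etnppl by -0.63, and the brightest Arpp21 probe by -0.45 (SE 0.12, limma adjusted p = 0.347). Cd6 differed by -0.29 (SE 0.13) and Mmel1 by -0.01 and -0.12. Without WT mouse 304, ENSMUST00000091759 was called and the count was 1. Of the plaque-microglia genes, 8 of 15 were called higher on these arrays too (summed level 181 to 241 in WT and 218 to 291 in APP/PS1).

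ENSMUST00000091759 was split by genotype in both tissues except in WT MSX-3 mouse 304, and it was singled out after its values were seen. The ranges over all arrays include the water cortex, where the rule required the split. Most mice gave 2 of these arrays, so the arrays are not separate replicates. The probe (A_52_P365925) has no gene name in the tables used, and lay well above background on every array. On the 24 APP/PS1 arrays it ran from 1.61 to 2.09 with a median of 1.78. On 20 of the 22 WT arrays it ran from 2.42 to 2.95 with a median of 2.69. The other 2 WT arrays were the cortex and the hippocampus of WT MSX-3 mouse 304, at 1.61 and 1.79, inside or at the edge of the APP/PS1 range. The Prnp probe of that mouse read 5.24 and 5.43, so on that probe both arrays lay with the WT arrays. In water hippocampus the values were 2.43, 2.76 and 2.88 in WT and 1.72, 1.76 and 1.88 in APP/PS1 (lowest, median and highest), a difference of -0.91 (SE 0.09, limma adjusted p = 0.000375). In MSX-3 cortex, with mouse 304 included, the difference was -0.57 (SE 0.18, limma adjusted p = 0.217).

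Arpp21 was the gene with most member probes, and its brightest probe showed how the regions differ. In hippocampus it read 0.03, 0.55 and 0.70 (lowest, median and highest) in WT and -0.01, 0.24 and 0.66 in APP/PS1 on water, and 0.33, 0.60 and 0.90 against -0.10, 0.16 and 0.41 on MSX-3. The genotypes overlapped in both. Differences in water hippocampus were -0.33, -0.26 and -0.38 over the 3 member probes (limma adjusted p = 0.252, 0.547 and 0.113), and in MSX-3 hippocampus -0.43, -0.45 and -0.28 (limma adjusted p = 0.818, 0.347 and 0.952). All of these were below 0 and none passed the test.

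Whether a member's genotype difference depended on the region was tested in the MSX-3 mice as genotype difference in cortex minus that in hippocampus. Of 53 members tested, none was called, where 0.181% of 38079 probes were called (69, all higher), and 10 members had an unadjusted p under 0.05. For Cd6 the difference between regions was -0.64 (SE 0.20, limma adjusted p = 0.54), and for the Mmel1 probe A_55_P2001078 -0.77 (SE 0.46, limma adjusted p = 0.685). The smallest adjusted p was that of Jaml, -0.91 (SE 0.23, limma adjusted p = 0.223), whose hippocampus difference was 0.31. Thus the calls of Cd6 and Mmel1 in cortex alone do not show that the regions differ.

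The members were, by contrast, unevenly spread over the tissues. In WT MSX-3 mice, whose arrays played no part in the rule, 52 members were tested for cortex minus hippocampus. Of these, 36 passed the filter in both tissues, 11 through cortex alone and 5 through hippocampus alone, and for the last 16 the filter favoured the direction. Of all 52, 27 were called higher in cortex, 4 lower, and 21 were not called. Of the 36, 17 were called higher and 3 lower, with a median of 0.55 and 12 below 0. Over all 37577 probes tested, 7.78% were called higher and 9.07% lower. Over the 52 the members' median was 0.70 (all probes -0.03). Among the probes that also passed the filter of the rule, 7.93% were higher and 8.1% lower, with a median of -0.02.

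Cd6 was higher in cortex by 2.79 (SE 0.16, limma adjusted p = 2.91e-07) and Mmel1 by 3.16 and 2.57 on its probes. Myh2 was higher by 3.16, Rpe65 by 2.73 and the brightest Arpp21 probe by 1.89. Several members were well above background on no hippocampus array of these mice, which leaves a lower bound. These passed the filter through the cortex arrays alone, so their adjusted p is given beside the bound and not as support for the direction. Gm765 was at least 8.93-fold higher in cortex (limma adjusted p = 1.09e-05), Tmc1 at least 6.35-fold (limma adjusted p = 2.9e-07), 1700047F07Rik at least 4.31-fold (limma adjusted p = 5.73e-07), Ocm at least 3.43-fold (limma adjusted p = 4.65e-08) and Dmgdh at least 2.77-fold (limma adjusted p = 6.47e-05, 4 of 5 cortex arrays measured). Lower in cortex were Adgrg2 (-1.69, SE 0.23, limma adjusted p = 0.000199, 2 of 5 cortex arrays well above background), Gm5148 (-1.02, SE 0.18, limma adjusted p = 0.00128), a region probe of chromosome 11 (-0.79) and the cDNA clone AK046277 (-0.63). Adgrg2 passed the filter through the hippocampus arrays alone, so its adjusted p is no support for the direction and its size is uncertain. The 27 cortex-higher members had a median genotype difference of -0.52 in MSX-3 cortex and held all 7 calls there. The other 21 members tested for genotype had a median of -0.19 and no call. These values are a description, since both use the WT MSX-3 cortex arrays.

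**Figure D3:**
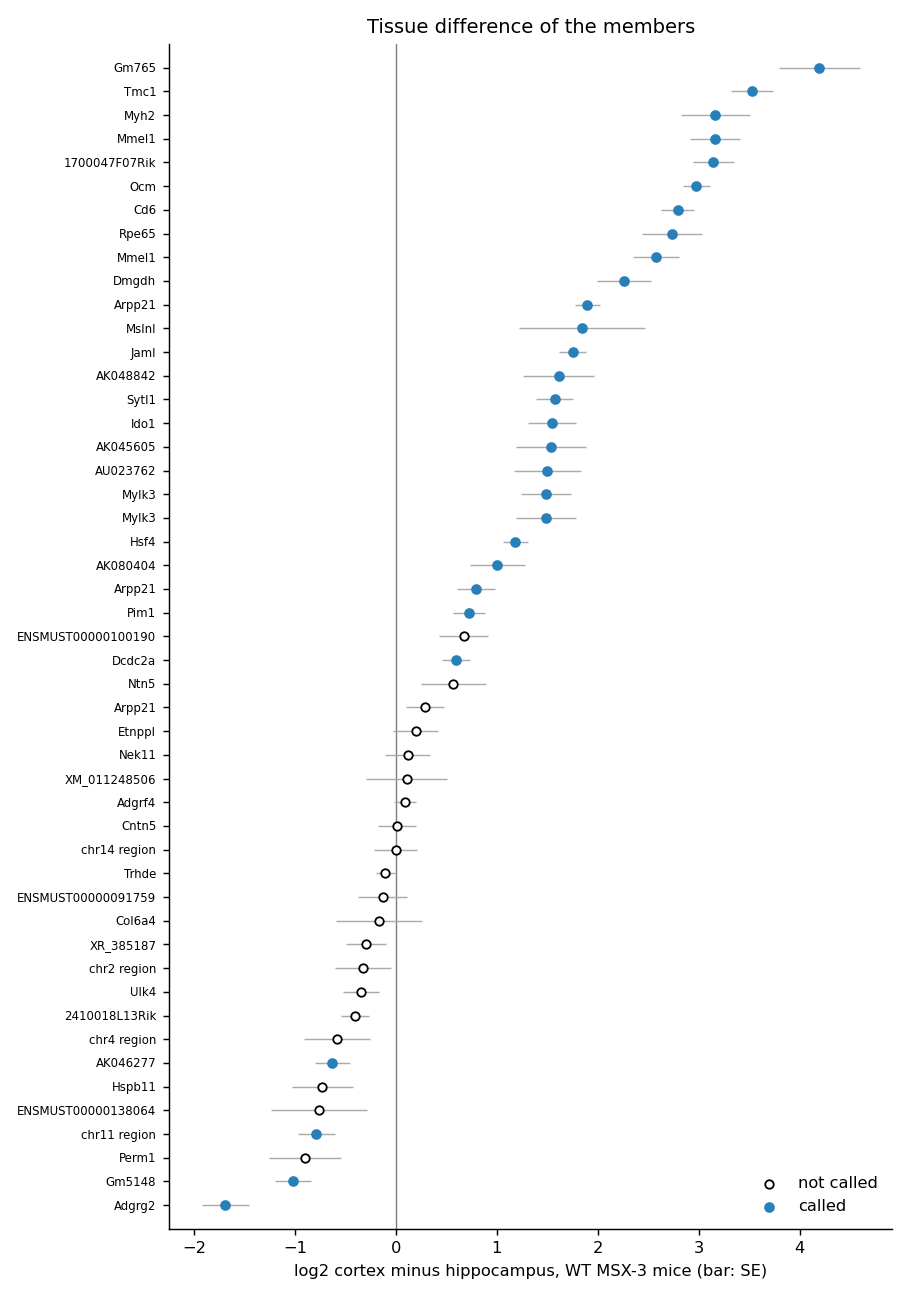
Log2 difference cortex minus hippocampus in WT MSX-3 mice for 49 of the 52 members tested (bars, SE; filled, called; open, not called), ordered by size. The points reach from -1.69 for Adgrg2 to 4.19 for Gm765, with 25 called on the cortex side and 4 on the hippocampus side.

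MSX-3 against water within a genotype was tested in the hippocampus only, since the cortex water arrays chose the members. In WT hippocampus 47 members were tested and none was called (0% of 37794 probes), with a median of -0.07. Unadjusted, 2 members and 1898 of all probes had p under 0.05 in limma. In APP/PS1 hippocampus 36 members were tested and none was called (0% of 36847 probes), with a median of 0.05. No member and 1425 of all probes had an unadjusted p under 0.05 there.
In cortex the same difference is given with no test. From water to MSX-3, 61 of 69 members had a lower mean in WT mice, with a median of -0.34 (all probes that passed the rule's filter -0.03, 55.9% below 0). In APP/PS1 mice 28 of 69 were lower, with a median of 0.10 (kept probes -0.02, 53.7% below 0). The rule used these water arrays, so no direction is read from either count. Cd6 lay at a WT median of 1.05 on water and 0.67 on MSX-3.

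By position, the members were unevenly spread as well. With a chromosome given in the GRCm38.p6 gene table or the array's region names were 51 of the 69. Chromosome 9 held 11 of these (21.6%), where it held 5.53% of the 26813 kept probes with a chromosome, a ratio of 3.9. Counted as genes, it held 9 of 42 (21.4%, against 5.65% of 16521). Next came chromosome 4 with 9 probes (17.6%, against 6.48%), for 6 genes and for regions without a gene name. Chromosomes 15, 16, 18 and Y held none.
In the order of the 934 measured genes along chromosome 9, Cntn5 was gene 23, Jaml 267, Gsta2 561, Gk5 639, Nek11 698, Col6a4 702, Arpp21 829, AU023762 832 and Ulk4, an Unc-51-like kinase gene, 889. Cut into 4 stretches of 233 or 234 genes, that order held 1, 1, 3 and 4 of them. AU023762 lay 3 measured genes from Arpp21. In MSX-3 cortex none of these 9 genes was called. Nek11 differed by -0.84 (limma adjusted p = 0.295, 3 of 6 APP/PS1 arrays well above background), Col6a4 by -0.60 (limma adjusted p = 0.475), Jaml by -0.60 (limma adjusted p = 0.0619), AU023762 by -0.17 (limma adjusted p = 0.738), Cntn5 by -0.14 (limma adjusted p = 0.828) and Ulk4 by 0.04 (limma adjusted p = 0.95). Gsta2 and Gk5 were too dim there to be tested.

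**Figure D4:**
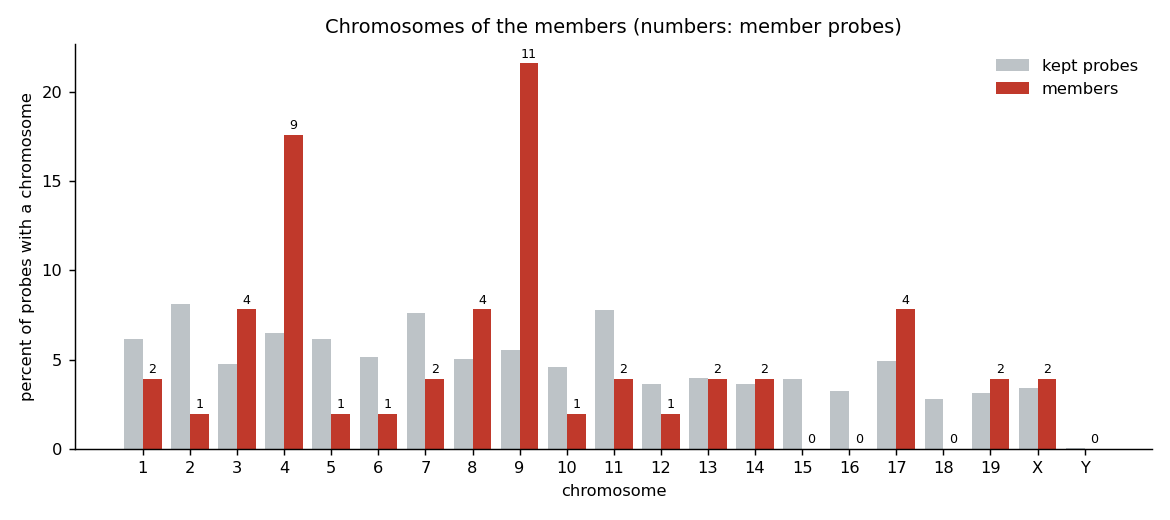
Share of the 51 members with a chromosome (red, with the number of probes above) and of the kept probes with a chromosome (grey) on each mouse chromosome, as percent. Chromosome 9 has the tallest member bar, at 21.6% against 5.53%, followed by chromosome 4, at 17.6% against 6.48%.

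Genotype and scan day were not balanced. On scan day 1 and 2 there were 2 and 3 arrays of WT water cortex, 5 and 1 of APP/PS1 water cortex, 3 and 2 of WT MSX-3 cortex, and 6 and 0 of APP/PS1 MSX-3 cortex. In the hippocampus there were 2 and 4 of WT water, 6 and 0 of APP/PS1 water, and 4 and 2 in both MSX-3 groups. Within a group, day 2 minus day 1 had a median over the 69 members of 0.09 in WT water cortex, -0.08 in APP/PS1 water cortex, 0.07 in WT MSX-3 cortex and 0.16 in WT water hippocampus. The widest shift was in WT MSX-3 hippocampus, at 0.28, where 52 of 69 members were higher on day 2 (75.4%, against 55% of kept probes, whose median was 0.03). Kept probes are those that passed the background filter in that group, while the 69 members include dim ones. The shares are therefore not of like probes. In APP/PS1 MSX-3 hippocampus it was 0.05.

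Within single scan days, the cortex difference on water had a median of -0.75 over the members on day 1 (5 APP/PS1 and 2 WT arrays) and -0.78 on day 2 (1 and 3 arrays), and all 69 were below 0 on both days, as the rule requires. In MSX-3 cortex only day 1 held both genotypes (6 APP/PS1 and 3 WT arrays). There 38 of the 48 tested members were below 0, with a median of -0.28 (all probes -0.0014). Cd6 differed by -1.06 on that day, the Mmel1 probes by -0.81 and -0.76, Tmc1 by -0.73 and Mslnl by -0.89. These arrays are part of those on which the genes were called, so the values are no separate support. The 3 WT arrays were all on slide 2, which held no APP/PS1 array of MSX-3 cortex. With the scan day as a block, Cd6 (limma adjusted p = 0.0076) and AK045605 (limma adjusted p = 0.0242) stayed called. The Mmel1 probes (limma adjusted p = 0.0901 and 0.073), Tmc1 (limma adjusted p = 0.138) and Mslnl (limma adjusted p = 0.153) did not pass, and Sytl1 was added.
In water hippocampus day 1 held 6 APP/PS1 and 2 WT arrays. There 31 of 46 members were below 0, with a median of -0.19, and ENSMUST00000091759 differed by -0.81. In MSX-3 hippocampus the members' median was -0.11 on day 1 (4 against 4 arrays, 30 of 42 below 0) and -0.36 on day 2 (2 against 2 arrays, 36 of 42 below 0). So the direction of the members' median was the same within each day that held both genotypes, and its size was smaller on day 1 than over both days in the 3 comparisons outside the rule.

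**Figure D5:**
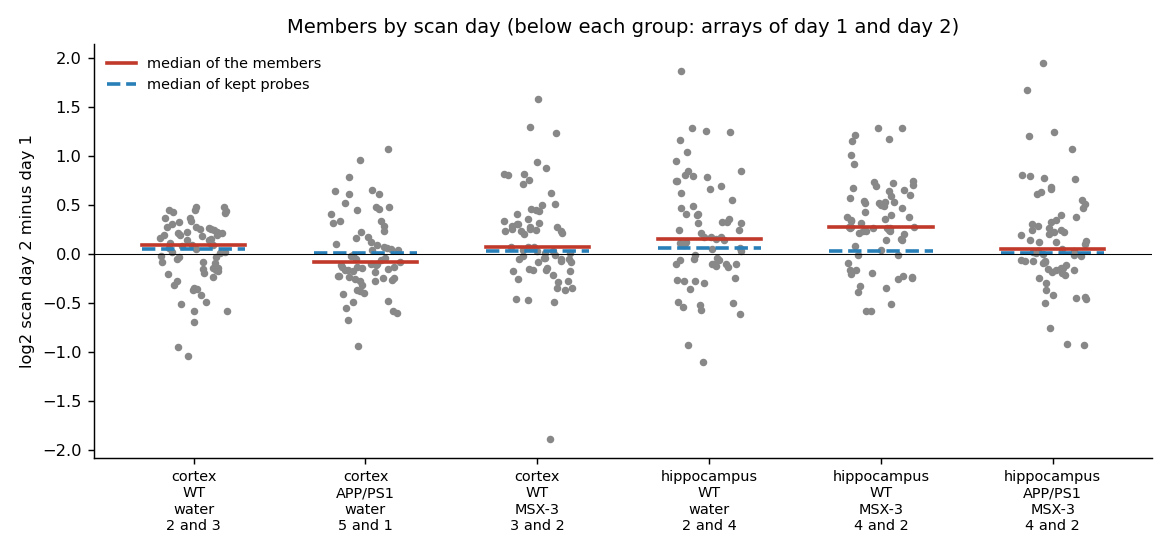
Log2 difference of scan day 2 minus scan day 1 within each group that was scanned on both days, 1 grey point for each of the 69 members (red line, members' median; dashed blue line, median of kept probes; numbers of arrays on each day below the group). Medians of the members run from -0.08 to 0.28 and those of kept probes from 0.01 to 0.06. Kept probes passed the background filter in their group, while the members include dim ones.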

How the data were processed

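Levels are the processed signal intensity (gProcessedSignal) that the authors deposited for each Agilent mouse 60-mer array, after background subtraction by Feature Extraction 10.7.3.1 as recorded in the file headers. The deposited value table held the same intensity at 3022848 of 3022848 values (relative tolerance 1e-06). From these, log2 minus each array's 75th percentile was computed. The 2 arrays without a found grid were left out. Members and gene lists were chosen with earlier results of these data known.

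Each comparison was fitted with limma 3.58.1 (lmFit, eBayes) in R 4.3.3, on the groups compared, over probes well above background on 4 or more arrays of a group. Spots flagged as outliers were left out of the tests (1 member value), not of the rule. A probe was called at a Benjamini-Hochberg adjusted p under 0.05 over all probes tested and a fold change of at least 1.5. Replicates are separate mice. The number of arrays, not counting error, limits the precision. A lower bound sets the bright group's mean against, on each array of the dim group, the higher of the lowest signal well above background and the probe's own. The steps were tested on simulated data. Figures and tables used Python 3.11.15, pandas 2.3.3 and matplotlib 3.10.9.

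Probes were named through RefSeq accessions in the GRCm38.p6 gene table (32994) or the study's tables (59), and 23552 had no name. The array's regions are in mm9. Named genes are members with a rule difference of -0.8 or lower, called in a genotype comparison outside the rule, read by 2 or more member probes, next to the threshold, on the fixed gene lists, or on a chromosome with over 3 times its share, and the label-check genes. Some members are counted but not reported by name here. Alternatives were normexp with offset 50, quantile scaling, other percentiles and filters, flagged spots kept, an intensity trend, slide, scan day or mouse as a block, all groups fitted, failed arrays kept, and each mouse left out. The fits on scan day 1 arrays and the rule without each mouse were chosen after seeing the data. The same mouse gave both tissues, which pairs the arrays. Over 22 mice the correlation of deviations between its arrays ran from -0.49 to 0.47 (median 0.03), 10 over 0.1.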

Additional observations from a re-analysis of the deposited data

Results flagged for a closer look

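Among 12 members checked in 8 groups each (96 groups of 5 or 6 arrays), 12 values stood apart, in that the gap to the nearest array of the same group, divided by the group's whole range, exceeded Dixon's critical value. Chance alone gives this in about 1 group in 20. In APP/PS1 MSX-3 cortex, mouse 293 was lowest for Cd6 (-0.57), for the brightest Arpp21 probe (1.58) and for AK045605 (-5.55), and mouse 267 was highest for Mamld1 (-6.02). APP/PS1 mouse 325 was highest for Mamld1 in water cortex (-5.83). WT MSX-3 mouse 304 was lowest for ENSMUST00000091759 in cortex (1.61) and in hippocampus (1.79). In the hippocampus of MSX-3 mice, WT mouse 49 was highest for Mslnl (-2.03) and APP/PS1 mouse 267 for the second Mmel1 probe (-2.58). In the hippocampus of WT water mice, mouse 56 was lowest for the brightest Arpp21 probe (0.027), mouse 318 lowest for another Arpp21 probe (-1.12) and mouse 310 highest for AK045605 (-4.13).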

How the results depend on the processing

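The called members of the genotype comparisons kept their direction under each alternative. In MSX-3 cortex, the 7 called members became 3 with normexp, 4 without the filter on dim probes, 4 with the scan day as a block and 0 with the failed arrays kept, and between 3 and 8 with 1 mouse left out. The slide as a block could not be fitted there, since no slide held arrays of both genotypes. WT arrays lay on slides 2, 6 and 7 and APP/PS1 arrays on slides 1, 3, 4 and 5. Genotype and slide can therefore not be told apart in MSX-3 cortex. Probes called lower among all probes were 52, and 6, 35, 24 and 0 in these 4 settings, 22 with an intensity trend. Cd6 was called in 21 of 22 alternatives (lost with the failed arrays kept), AK045605 in 20 of 22, the Mmel1 probes in 13 and 8, Tmc1 and Mslnl in 7 each. In water hippocampus the single called member became 0 with the slide as a block and 2 with all groups fitted (AU023762 added), and stayed 1 without any 1 mouse. ENSMUST00000091759 was called in 22 of 23 alternatives. In MSX-3 hippocampus the count of 0 became 1 with an intensity trend, with the slide as a block, with all groups fitted and with scan day 1 arrays alone, and 0 to 1 with 1 mouse left out. For the tissue difference, 31 members became 16 with normexp and 15 with the failed arrays kept, and 27 to 30 with 1 mouse left out. With the mouse as a replicate block, which pairs both tissues, 30 were called for tissue and 0 for genotype by tissue. Over all probes, the 52 called lower in MSX-3 cortex became 21 to 230 with 1 mouse left out, the 15 called lower in water hippocampus became 0 to 19 under the other alternatives and 6 to 36 with 1 mouse left out, and the 1 in MSX-3 hippocampus 0 to 2, and the 6335 called for tissue became 3910 with normexp and 1633 with the failed arrays kept. The rule itself found 11 probes with normexp (all 11 among the 69), 144 with the failed arrays kept and 77 to 173 with 1 mouse left out. MSX-3 against water in hippocampus and genotype by tissue stayed at 0 members throughout. Members well above background on no array of a group have only a lower bound there.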
